A study of Mus musculus with 2 samples.

Results

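Ependymal nuclei of the mouse subventricular zone were picked out of a single-nucleus RNA data set by the cilium genes they carried. A barcode was a member when it had at least 500 genes, at most 5% mitochondrial UMIs (unique molecular identifiers, each standing for 1 captured RNA molecule), at least 6 detected genes of a set of 17 genes of motile cilia, and at most 1 UMI of Rbfox3, a neuronal splicing factor. The rule found 105 members among 28964 nuclei that passed the gene and mitochondrial filters. The MIP library gave 42 members of 12114 nuclei, and the Control library gave 63 members of 16850 nuclei. MIP stands for modeled intestinal perforation, which was set up on postnatal day 5, and the subventricular zone of MIP mice and of healthy Control mice was dissected 48 hours later, on postnatal day 7, and snap frozen before nuclei were isolated. Each group is 1 library of mice with no allele or agent named beyond the model, and the sources used here give no number, strain or sex of the mice. With 1 library per group no difference between MIP and Control could be tested, and every interval given here is an exact 95% interval that covers counting error only.

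Ependymal cells are the multiciliated glia that line the brain ventricles. They descend from radial glia, leave the cell cycle, and build many centrioles at once on organelles called deuterosomes; each centriole then becomes the basal body of a motile cilium. Gmnc and Mcidas start this programme, Foxj1 and RFX factors turn on the genes of the axoneme (the microtubule core of the cilium), and the beating cilia move cerebrospinal fluid. In the mouse these cells mature around and after birth, so that nuclei at different stages can be present in the first postnatal weeks.

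The 17 rule genes code for Foxj1, a forkhead transcription factor, for the dynein heavy chains Dnah6, Dnah9, Dnah11 and Dnah12, for the central pair proteins Spag16, Spag17, Hydin and Cfap54, and for Cfap43, Cfap44, Cfap61, Cfap299, Ak7, Armc3, Ccdc153 and Tmem212, which are found in ciliated cells. Because these genes chose the members, their levels describe the choice and support nothing. The number detected per nucleus did not fall evenly. In the MIP library 9 nuclei showed exactly 6 rule genes and 6 nuclei showed all 17, with no more than 5 nuclei at any number from 7 to 16. In the Control library 22 nuclei showed exactly 6 and 9 nuclei showed all 17, and no nucleus showed 12. Just outside the limit, 16 MIP nuclei and 28 Control nuclei had 5 rule genes. After this distribution was seen, the members were read in 2 bands: an upper band of 12 or more rule genes (17 MIP nuclei and 20 Control nuclei) and a lower band of 6 to 11 rule genes (25 MIP nuclei and 43 Control nuclei).

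**Figure D1:**
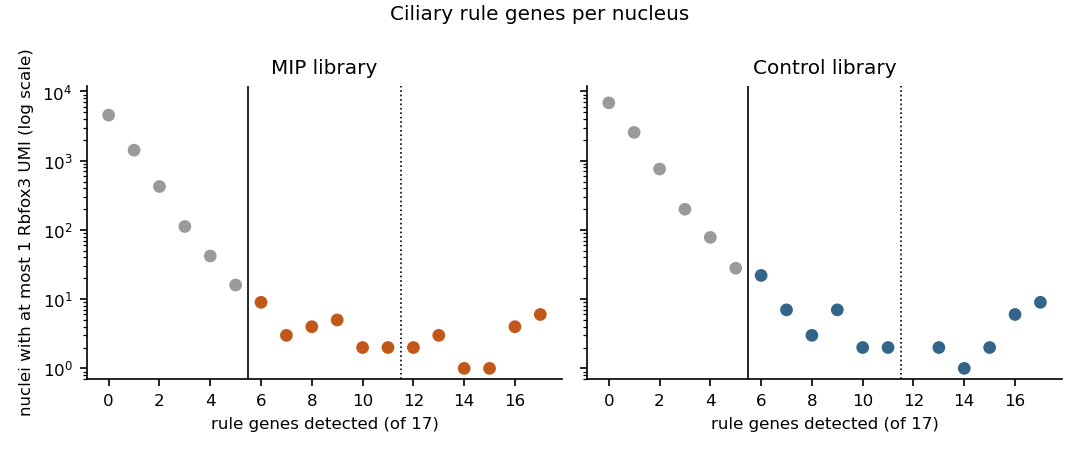
Number of nuclei (log scale) by how many of the 17 rule genes were detected, for nuclei with at most 1 Rbfox3 UMI, MIP on the left and Control on the right; coloured points are members, the solid line is the limit of 6 and the dotted line parts the 2 bands. Nuclei thin out across the limit of 6 and gather again at 16 and 17, where there are 10 MIP nuclei and 15 Control nuclei.

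Depth bears on such a rule, since a deeper nucleus shows more genes. Members had a median of 4750 UMIs (2034 to 38377) in the MIP library and 6301 UMIs (1133 to 30494) in the Control library, against 6488.5 and 6206.5 UMIs over all passing nuclei of the MIP and Control libraries. In the band of 12 or more the medians were 8276 UMIs in MIP and 7617 UMIs in Control, and in the band of 6 to 11 they were 3567 and 5477 UMIs. Summed over nuclei, the band of 12 or more held 175937 UMIs in MIP and 171777 UMIs in Control. The libraries shared 115 barcodes, of which 0 belonged to a member. Among members, Xist, the RNA of the inactive X chromosome, had 0 UMIs in MIP and 795 UMIs in 60 of 63 Control nuclei, whereas genes of the Y chromosome had 156 UMIs in 36 of 42 MIP nuclei and 0 in Control. The MIP members therefore carried male transcripts and the Control members female ones, so that MIP and sex cannot be told apart in any comparison given here.

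Most genes of the axoneme that the rule did not use were detected together with the rule genes in the band of 12 or more, and far less in the band of 6 to 11. Of 125 such axoneme genes, the nuclei with 12 or more rule genes showed a median of 67 (25 to 100) in MIP and 70.5 (40 to 101) in Control. Nuclei with 6 to 11 rule genes showed a median of 21 (11 to 45) in MIP and 25 (7 to 49) in Control. Astroglia-like nuclei, which are no members and had at least 6 of 10 astroglial markers, showed a median of 4 in MIP and 7 in Control. As a share of all UMIs, the axoneme list had medians of 320 per 10000 UMIs in MIP and 315 in Control in the upper band, 79.9 and 69.1 in the lower band, and 12.6 and 14.4 in astroglia-like nuclei. At the limit itself, members with exactly 6 rule genes had a median of 20 axoneme genes in MIP and 23.5 in Control, and nuclei just outside with 5 had 17 and 15.5, so the limit of 6 did not mark a step in these genes.

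**Figure D2:**
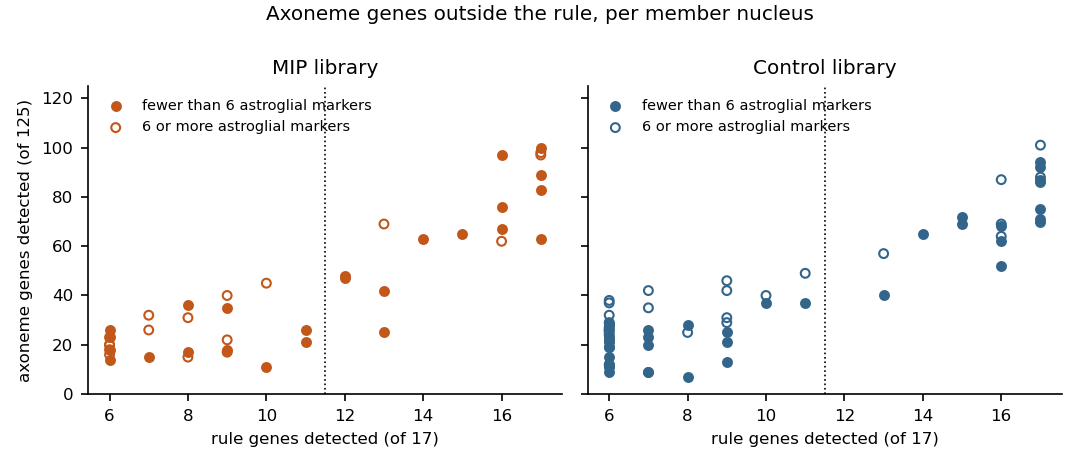
Each point is a member; the horizontal axis gives the rule genes detected (of 17), the vertical axis the axoneme genes outside the rule that were detected (of 125), MIP left and Control right, and open points are nuclei with at least 6 of 10 astroglial markers. Nuclei to the right of the dotted line reach medians of 67 (MIP) and 70.5 (Control), against 21 and 25 to its left.

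The markers named with the label of ependymal cells, Foxj1, Spag17, Dnah12, Cfap54 and Hydin, are all rule genes, so their levels follow from the choice and do not check it. The label of the upper band rests on the axoneme genes outside the rule, given above. They belong to the same programme as the rule genes, so they too describe the choice and are no independent check of it. Markers of other cells were present in part of both bands, as given below. As a description, in the upper band Foxj1 was detected in 10 of 17 MIP nuclei (23 UMIs) and 16 of 20 Control nuclei (31 UMIs), and Dnah12 and Hydin were detected in every nucleus of both libraries. In the lower band Foxj1 was detected in 3 of 25 MIP nuclei and 5 of 43 Control nuclei, and among the nuclei that are no members in 0.770% of 12072 in MIP and 1.08% of 16787 in Control. In the lower band 13 of 25 MIP nuclei and 19 of 43 Control nuclei carried at least 6 of the 10 astroglial markers. In 3 MIP nuclei and 9 Control nuclei of the lower band the neuron list stood at or above 293 UMIs per 10000, the median of the Control nuclei that are no members; at the median of the MIP nuclei that are no members, 384 UMIs per 10000, 0 MIP nuclei passed. At least 3 markers of choroid plexus epithelium, the other ciliated epithelium of the ventricles, were present in 1 MIP nucleus and 3 Control nuclei of the lower band, and 3 MIP and 5 Control nuclei had a high doublet score. These traits overlap, and 10 MIP and 13 Control nuclei of the lower band had none of them. In the upper band 4 of 17 MIP nuclei and 6 of 20 Control nuclei also carried at least 6 astroglial markers. At least 3 choroid plexus markers were present in 6 MIP and 2 Control nuclei of that band. These traits were thus not limited to the lower band. The lower band, which also showed far fewer axoneme genes, is called by its rule here, and not by a cell type.

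Levels of other marker lists also differed between the bands. The astroglial list had a median of 18.5 UMIs per 10000 in MIP and 16.9 in Control in the upper band, 72.9 and 32.5 in the lower band, and 156 and 120 in astroglia-like nuclei. The neuron list, from which the rule kept out nuclei with more than 1 Rbfox3 UMI, had medians of 70.1 in MIP and 120 in Control in the upper band, and 110 and 91.6 in the lower band, where single nuclei reached 367 in MIP and 542 in Control. The choroid plexus list had medians of 3.62 in MIP (0 to 48.1) and 1.49 in Control in the upper band. Its defining genes Ttr, the thyroid hormone carrier, Aqp1, a water channel, and Kl, Kcne2, Slc4a5 and Slc13a4 were at 0 UMIs in all 37 upper-band nuclei, 6 of the 16 genes of the list. Others were present: Col8a2 had 15 UMIs in each library and Otx2os1 40 in MIP and 7 in Control, and both were at least 2-fold higher than in the nuclei that are no members, with a median log2 ratio of 6.64 in MIP and 5.07 in Control. Otx2 had 11 UMIs in MIP and 2 in Control, and Folr1 5 and 2. At least 3 markers of the list were detected in 6 MIP and 2 Control nuclei of the upper band. A count of 0 in the 17 MIP nuclei or the 20 Control nuclei leaves levels below 3 UMIs per library undetected. In the lower band Ttr had 2 UMIs in MIP and 477 UMIs in Control, of which 460 lay in 1 nucleus. Rax, which defines tanycytes, the ventricular glia of the hypothalamus, was at 0 in the upper band, as were the fibroblast genes Col1a1 and Dcn. Of the 12 genes of the tanycyte list only 3 were at 0. That list summed to 3.30 UMIs per 10000 in MIP and 3.20 in Control, beside 2.23 and 2.63 in the nuclei that are no members. The fibroblast list, with 6 of 12 genes at 0, summed to 0.796 in MIP and 0.757 in Control, beside 0.832 and 0.745. Doublets were not removed, and 0 upper-band nuclei of either library had a high doublet score.

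**Figure D3:**
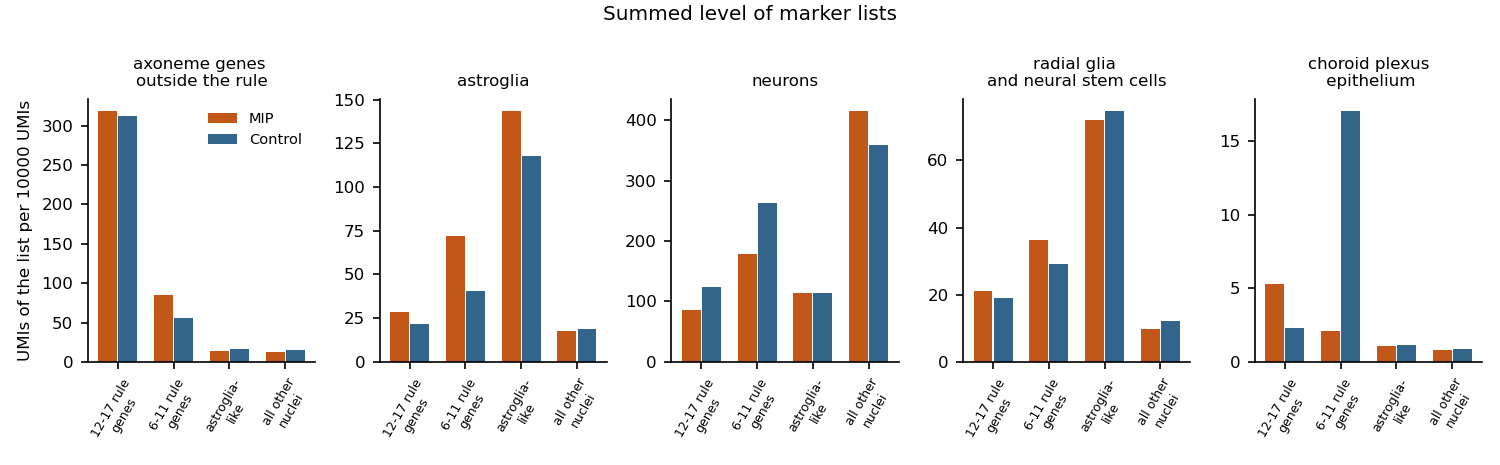
Summed UMIs of each list per 10000 UMIs in the nuclei with 12 to 17 rule genes, those with 6 to 11, astroglia-like nuclei and all nuclei that are no members, with MIP left of Control in every pair; vertical scales differ between panels. The axoneme list is highest in the upper band, and the choroid plexus bar of the lower Control band holds the nucleus with 460 Ttr UMIs.

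The share of members differed between the libraries by no more than counting error allows. Members made up 0.347% (0.250 to 0.468) of nuclei in MIP and 0.374% (0.287 to 0.478) in Control, a log2 ratio of -0.11 (-0.71 to 0.48). Nuclei with 12 or more rule genes made up 0.140% (0.0818 to 0.225) in MIP and 0.119% (0.0725 to 0.183) in Control, a log2 ratio of 0.24 (-0.78 to 1.25). After every nucleus was thinned to 2000 UMIs, 34 of 10894 MIP nuclei and 36 of 13130 Control nuclei met the rule, which left out 1220 MIP and 3720 Control nuclei for lack of depth. None of these intervals excludes an equal share. With nuclei of any Rbfox3 count included, the share of nuclei with 6 or more rule genes was 0.702% in MIP and 1.31% in Control, a log2 ratio of -0.90 (-1.28 to -0.54), and the Rbfox3-rich nuclei so added had medians of 27547 UMIs in MIP and 29208.5 UMIs in Control.

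The upper band was set against all nuclei that are no members, in each library apart. A gene was counted when it had at least 20 UMIs over the nuclei of both libraries, and called when it was at least 2-fold higher in both. Of 3840 genes counted, 1232 were called (32.1%), and the median log2 ratio over all genes was 0.53 in MIP and 0.46 in Control. Over the 93 axoneme genes outside the rule that had enough UMIs, 91 were called and the median log2 ratio was 5.65 in MIP and 5.51 in Control. Since the nuclei were chosen by genes of the same programme, these ratios are a description.

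Of the axonemal dynein chains, which are the motors of the cilium, 16 of 16 counted genes were called, with medians of 5.84 in MIP and 5.89 in Control. Dnah3, a heavy chain, had 179 UMIs in MIP and 139 in Control, and log2 ratios of 8.71 and 7.52. Dnah5, the heavy chain of the outer arm, had 151 UMIs in MIP and 141 in Control, with log2 ratios of 6.73 and 6.29. Dnah7a, Dnah7b and Dnah7c are near-identical copies, so their separate values are uncertain. Of the docking and assembly factors 11 of 12 were called, the exception being Dnaaf5, with log2 ratios of 0.47 in MIP and 2.83 in Control. Armc4, a docking protein, had 89 UMIs in MIP and 58 in Control. The nexin-dynein regulatory complex, which links neighbouring microtubule doublets, had 14 of 14 genes called, and Fbxl13 had log2 ratios of 8.47 in MIP and 7.96 in Control.

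The radial spokes, which join the doublets to the central pair, had 14 of 14 genes called. The central pair apparatus had 17 of 17, among them Spef2 with 240 UMIs in MIP and 198 in Control and log2 ratios of 8.77 and 7.61, and Cfap65 with log2 ratios of 8.55 and 8.11. Spag6 was at 0 while its near copy Spag6l had 141 UMIs in MIP and 103 in Control, and reads of these copies may not have been told apart. Proteins inside the doublets and tektins had 19 of 20 called, with Nme7 below the limit at 0.83 in MIP and 0.56 in Control. Intraflagellar transport, which also serves the primary cilia of other cells, had smaller ratios: 22 of 27 were called, with medians of 2.47 in MIP and 2.07 in Control. Ttc21a stood highest in that list, with 71 UMIs in each library and log2 ratios of 7.32 in MIP and 7.05 in Control. Basal body and planar polarity genes had 14 of 19 called, led by the rootletin relative Crocc2 with 66 UMIs in MIP and 87 in Control. The planar polarity receptor Celsr1 had log2 ratios of 4.72 in MIP and 4.06 in Control.

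Outside the cilium, the list of ependymal surface, junction and transport genes had 10 of 18 called. Tm4sf1, a membrane protein, had 43 UMIs in MIP and 49 in Control and log2 ratios of 8.21 and 7.64. Mlc1, a membrane protein of glia at fluid borders, had 46 UMIs in MIP and 45 in Control. Vim, the filament protein vimentin, had 13 UMIs in MIP and 20 in Control, and S100b, a calcium-binding protein of mature ependyma and astrocytes, had 24 UMIs in MIP and 8 in Control. Ank3, an anchor protein of neuronal axons, was lower than in the nuclei that are no members, by log2 ratios of -1.64 in MIP and -1.36 in Control.

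The 15 genes outside the rule with the highest lower interval bound, taken over both libraries, were Spata18, C230072F16Rik, Unc5cl, Wdr63, Zfp474, 2010001K21Rik, Ccdc180, Crocc2, Ttll6, Ak9, Fam216b, Gm867, Lrrc71, Cdhr4 and Frmpd2. Spata18, a mitochondrial quality control gene, had 31 UMIs in MIP and 38 in Control, and log2 ratios over the nuclei that are no members of 10.41 (9.43 to 11.47) and 9.59 (8.91 to 10.25). Unc5cl had 50 UMIs in 6 of 17 MIP nuclei and 51 UMIs in 8 of 20 Control nuclei. C230072F16Rik, by contrast, was found in 16 of 17 MIP nuclei and 20 of 20 Control nuclei, with 203 and 170 UMIs. Ttll6, a tubulin glutamylase that modifies ciliary microtubules, had 38 UMIs in MIP and 52 in Control. Wdr63, an intermediate chain of inner dynein arms, had 144 UMIs in MIP and 118 in Control.

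Transcription factors of the multiciliated programme followed, with 11 of 13 counted genes called. Rfx2, which acts with Foxj1 on cilium genes, was found in 14 of 17 MIP nuclei (61 UMIs) and 20 of 20 Control nuclei (51 UMIs), with log2 ratios of 6.94 and 6.36. Rfx3, a related factor that is more widely used, was found in 17 of 17 MIP nuclei and 20 of 20 Control nuclei, with log2 ratios of 2.10 and 1.69. Trp73, which acts upstream of Foxj1, had 27 UMIs in 9 MIP nuclei and 26 UMIs in 14 Control nuclei. Myb, a factor of centriole amplification, had 42 UMIs in 12 MIP nuclei and 48 UMIs in 13 Control nuclei. Gmnc was found in 4 MIP nuclei (5 UMIs) and 4 Control nuclei (7 UMIs), and Foxn4, another factor of the programme, in 2 MIP nuclei (2 UMIs) and 2 Control nuclei (4 UMIs). Rfx7 and Nfib were not called.

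The promoters of cilium genes are shown because RFX factors bind them through sites known as X-boxes. RefSeq promoters (build GRCm38.p6, 250 bases before to 50 bases after the start of the gene) were searched on both strands for the full RFX X-box, the RFX core site GTTGCC and a forkhead site GTAAACA. The core site, which can lie within a full X-box, was found in 49 of 96 axoneme genes with a promoter (51.0%), in 5 of the 12 leading genes with one (41.7%), in 4 of 14 rule genes (28.6%) and in 5 of 18 genes of centriole amplification (27.8%), beside 14.1% of all 27025 genes. The strict X-box pattern was in 0 of the 96 axoneme promoters and 0.152% of all genes, and the forkhead site in 4.17% and 4.05%. X-boxes that depart from the strict pattern were not searched for, so the 0 does not show that these promoters lack X-boxes. The promoters printed next were picked because they hold the core site. It was not found in the promoters of Cdc20b, Dnah12, Spag17, Unc5cl, Spata18 and Wdr63, or in another promoter of Deup1. In the printed promoters, capitals mark the core site or its reverse complement: Hydin at chr8:110266727-110267026 (plus strand), Deup1 at chr9:15627797-15628096 (minus strand), Mcidas at chr13:112993618-112993917 (plus strand) and Ccno at chr13:112987552-112987851 (plus strand).
Hydin: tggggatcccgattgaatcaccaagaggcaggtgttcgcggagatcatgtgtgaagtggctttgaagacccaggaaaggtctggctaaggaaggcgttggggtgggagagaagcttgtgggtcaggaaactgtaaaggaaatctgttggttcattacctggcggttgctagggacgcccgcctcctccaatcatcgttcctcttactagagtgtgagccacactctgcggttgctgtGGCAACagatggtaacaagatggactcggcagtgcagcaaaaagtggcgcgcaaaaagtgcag
Deup1: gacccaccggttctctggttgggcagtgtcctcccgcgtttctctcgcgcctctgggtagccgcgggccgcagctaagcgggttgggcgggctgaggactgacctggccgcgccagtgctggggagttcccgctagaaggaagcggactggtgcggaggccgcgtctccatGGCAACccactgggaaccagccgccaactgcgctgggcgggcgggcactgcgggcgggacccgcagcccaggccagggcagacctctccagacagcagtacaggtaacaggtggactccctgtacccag
Mcidas: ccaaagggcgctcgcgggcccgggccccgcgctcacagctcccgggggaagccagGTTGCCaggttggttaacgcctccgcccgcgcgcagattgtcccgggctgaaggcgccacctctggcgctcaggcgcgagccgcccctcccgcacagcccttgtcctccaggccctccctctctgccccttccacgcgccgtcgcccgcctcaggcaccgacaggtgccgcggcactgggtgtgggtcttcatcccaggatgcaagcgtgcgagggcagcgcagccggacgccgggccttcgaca
Ccno: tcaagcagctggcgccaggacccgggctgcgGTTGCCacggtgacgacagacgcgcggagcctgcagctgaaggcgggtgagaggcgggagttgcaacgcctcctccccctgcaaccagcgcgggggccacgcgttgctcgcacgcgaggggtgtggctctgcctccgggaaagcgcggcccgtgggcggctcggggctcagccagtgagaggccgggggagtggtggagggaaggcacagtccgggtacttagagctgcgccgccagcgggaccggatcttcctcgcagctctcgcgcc
Hydin codes for a central pair protein, and the other promoters belong to genes of centriole amplification.

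Nuclei of the upper band differed among themselves in centriole amplification. Deup1, the scaffold of the deuterosome, lies at chr9:15559864-15627933 on the minus strand. It had at least 3 UMIs in 7 of 17 MIP nuclei (41.2%, 18.4 to 67.1) and 8 of 20 Control nuclei (40.0%, 19.1 to 63.9), 1 or 2 UMIs in 4 nuclei of each library, and 0 in 6 MIP and 8 Control nuclei. The cut at 3 UMIs was chosen after these values were seen. In the nuclei that are no members Deup1 was detected in 1.58% in MIP and 2.06% in Control. Nuclei with at least 3 Deup1 UMIs had a median depth of 8276 UMIs in MIP and 7693.5 in Control, close to the 8369 and 6939 UMIs of nuclei with fewer.

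Cdc20b, a gene of the deuterosome pathway, split the nuclei in the same way. Nuclei with at least 3 Deup1 UMIs held 362 Cdc20b UMIs over both libraries, and nuclei with fewer held 2, a log2 ratio of 8.01. By nucleus, Cdc20b had 2, 5, 5, 0, 16, 0 and 4 UMIs in the 7 Deup1-high MIP nuclei, and 4, 21, 102, 0, 45, 80, 40 and 38 UMIs in the 8 Deup1-high Control nuclei. The highest MIP value lay below 6 of the 8 Control values. Of the 10 counted genes of the centriole list other than Deup1, Cdc20b included, 7 were at least 2-fold higher in Deup1-high nuclei, with a median log2 ratio of 2.28, beside 9.57% of all 3752 genes. They include Plk4, the kinase that starts centriole formation, its partner Cep152, and Stil, which builds the centriole cartwheel. Mcidas was also among the higher genes, together with the mitotic genes Top2a and Knl1, which are 2 of the 3 counted genes of the G2 and M list. The other, Kif11, was at least 2-fold lower. These ratios pool both libraries, and most UMIs were from Control. In MIP, Deup1-high and other nuclei held 4 and 0 UMIs of Plk4, 4 and 0 of Cep152, and 8 and 4 of Stil. Top2a had 2 and 0 UMIs in MIP, and Knl1 3 and 0. The intervals of Plk4, Cep152, Stil, Top2a and Knl1 include an equal level in MIP but not in Control. Of 93 axoneme genes 1 was higher and 3 were lower, and their median was -0.29.

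Other genes were low where Deup1 was high, again with a background of 9.57% of genes at least 2-fold lower. Unc5cl had 0 UMIs in Deup1-high MIP nuclei and 50 in the other MIP nuclei, and 3 and 48 UMIs in Control. Rmst, a long non-coding RNA, had 2 and 90 UMIs in MIP, and 2 and 39 in Control. Musk, a receptor kinase best known from the nerve-muscle junction, had 2 and 29 UMIs in MIP and 0 and 42 in Control. The list of further genes of ciliated cells had 12 of 46 lower, with a median of -0.55. Gpc5, a heparan sulphate proteoglycan of astroglia, is no such pattern: all 91 of its MIP UMIs lay in 1 Deup1-high nucleus.

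**Figure D4:**
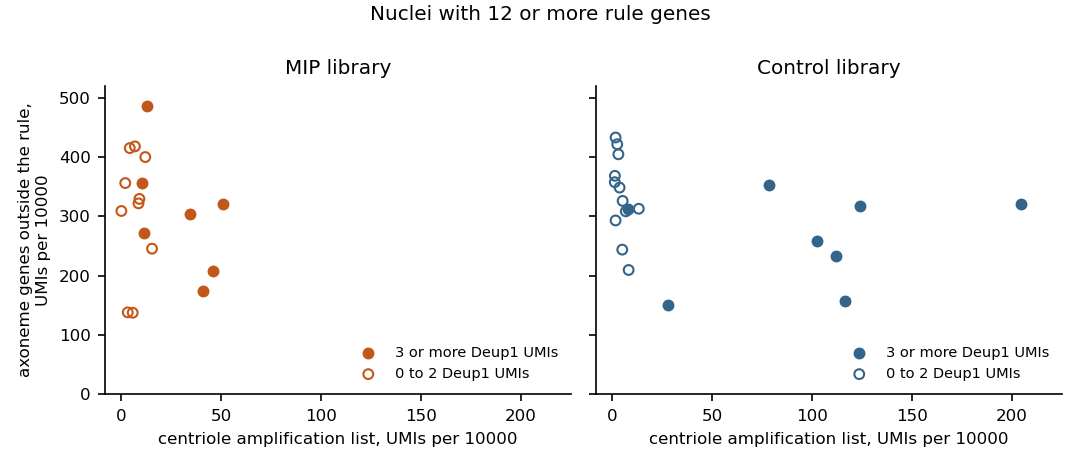
Each point is a nucleus with 12 or more rule genes; the horizontal axis gives the summed level of the centriole amplification list and the vertical axis that of the axoneme genes outside the rule, both in UMIs per 10000, MIP left and Control right. Filled points have 3 or more Deup1 UMIs (7 MIP and 8 Control nuclei), and the centriole values of 6 of the Control points lie beyond every MIP point.

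Between the libraries, genes of centriole amplification had lower summed levels in the MIP upper band. Of 3752 genes counted, 285 were at least 2-fold higher in MIP (7.6%) and 312 were at least 2-fold lower (8.32%). In the centriole list 0 of 11 were higher and 7 of 11 were lower, with a median log2 ratio of -1.48, while the median over all genes was 0.02. The typical nucleus did not show this: the list had a median of 10.2 UMIs per 10000 in MIP nuclei (0 to 50.7) and 7.34 in Control nuclei (1.23 to 204), so that the summed difference lies in the highest Control nuclei. Cdc20b had 33 UMIs in 6 of 17 MIP nuclei and 331 UMIs in 8 of 20 Control nuclei, which gives a log2 ratio of -3.36 (-3.92 to -2.84). A like share of nuclei had the gene, but UMIs per nucleus differed: 1 MIP nucleus and 6 Control nuclei had at least 10. Without the top nucleus of each library the log2 ratio was -3.78. Deup1 itself had 45 UMIs in 11 MIP nuclei and 133 UMIs in 12 Control nuclei, a log2 ratio of -1.60 (-2.12 to -1.10).

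Restricting the comparison to Deup1-high nuclei gave the same direction, but these nuclei were not alike in depth or Deup1 level. Among the MIP nuclei 1 held 38377 UMIs, beside a median of 8276, and 4 Cdc20b UMIs, so it weighed heavily on the sums. By nucleus, the centriole list without Deup1 had a median of 21.4 UMIs per 10000 in MIP (7.16 to 36.2). In Control the median was 82.0 (3.17 to 168). Among the 7 MIP and 8 Control nuclei with at least 3 Deup1 UMIs, Cdc20b had 32 and 330 UMIs, with a log2 ratio of -3.59 (-4.16 to -3.07). Of 8 counted genes of the centriole list, Deup1 included, 6 were at least 2-fold lower in MIP, with a median of -2.23. Deup1 had 40 UMIs in these MIP nuclei and 128 in the Control nuclei, or 518 and 1940 CPM. The cut at 3 UMIs thus did not match the libraries in Deup1 level, and its part in these ratios was not tested. Over all 1555 genes counted in these nuclei, 11.2% were at least 2-fold lower and 15% at least 2-fold higher. Mcidas had 9 UMIs in MIP and 27 in Control, Stil 8 and 32, Cep152 4 and 20, and Plk4 4 and 18. The mitotic genes Top2a and Knl1 had 2 and 3 UMIs in the whole MIP band, against 20 and 22 UMIs in the Control band. Of the list of G2 and M genes only 3 were counted in the upper band, of which 2 were lower in MIP, with a median of -2.91. In astroglia-like nuclei 23 were counted, with a median of -1.13, beside -0.12 over all genes there. When the Control barcodes that had been left out for over 5% mitochondrial UMIs were added, none of which was Deup1-high, the median of the centriole list was -0.93. With nuclei of any Rbfox3 count it was -0.85, and with every nucleus given equal weight -0.71.

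The genes stand together on the genome. Ccno, a cyclin-like gene of centriole amplification, lies at chr13:112987802-112990777, Mcidas at chr13:112993845-113000394 and Cdc20b at chr13:113035111-113091195, all on the plus strand (GENCODE M21, GRCm38). Ccno had 4 UMIs in Deup1-high MIP nuclei and 8 in Deup1-high Control nuclei. Between exons 2 and 3 of Cdc20b lie miR-449c at chr13:113036008-113036028 and miR-449a at chr13:113037549-113037570, microRNAs known for their role in multiciliated cells. Their mature sequences from RefSeq (GRCm38.p6) are shown because they share the seed in capitals and sit in Cdc20b.
mmu-miR-449c-5p: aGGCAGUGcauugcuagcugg
mmu-miR-449a-5p: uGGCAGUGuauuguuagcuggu
Mature microRNAs were not measured here, and the Cdc20b counts say nothing of them.

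Within the upper band, which genes of the same programme chose in both libraries, the axoneme itself was alike in level. Of 93 axoneme genes outside the rule, 4 were at least 2-fold higher and 4 at least 2-fold lower in MIP, with a median log2 ratio of -0.03. Over all 3752 genes 7.6% were higher and 8.32% lower. Hydin, a rule gene, had 171 UMIs in MIP and 224 in Control, and Dnah12 had 595 and 583.

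Among genes higher in the MIP upper band, Pros1 came first by its interval. Pros1, the anticoagulant protein S, also a ligand of the receptors that clear dying cells, had 63 UMIs in 10 of 17 MIP nuclei and 8 UMIs in 6 of 20 Control nuclei, a log2 ratio of 2.94 (1.88 to 4.22), and 23 of its MIP UMIs lay in 1 nucleus. It was higher in MIP also among nuclei with fewer than 3 Deup1 UMIs, with 57 UMIs in MIP and 7 in Control. In the nuclei that are no members Pros1 had a log2 ratio of 0.13, and in astroglia-like nuclei 0.33. When the Control barcodes over the mitochondrial limit were added, its log2 ratio in the upper band was 1.46. Trpm3, a cation channel gene that is also strong in choroid plexus, had 314 UMIs in 12 MIP nuclei, of which 101 lay in 1, and 80 UMIs in 10 Control nuclei, a log2 ratio of 1.94 (1.58 to 2.31). In the lower band Trpm3 went the other way, with 64 UMIs in MIP and 336 in Control. Otx2os1, a non-coding gene beside Otx2, the choroid plexus factor, had 40 UMIs in MIP and 7 in Control, and whether the counting told the strands apart is not given in the sources used here. The choroid plexus list was also higher in MIP in this band, at a median of 3.62 against 1.49 UMIs per 10000, with Ttr at 0 in both; its part in the Trpm3 and Otx2os1 values was not tested.

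Further genes of this rank were Irs2, the insulin receptor substrate, with 38 UMIs in 13 MIP nuclei and 5 UMIs in 4 Control nuclei (2.89, 1.54 to 4.59); Coq10b with 26 and 3 UMIs; Timp3, a protease inhibitor, with 34 and 5 UMIs; Nfkb1, a subunit of NF-kB, with 79 UMIs in 14 MIP nuclei and 19 UMIs in 12 Control nuclei (2.02, 1.28 to 2.83); Lncpint with 140 and 40 UMIs; Hacd1 with 31 and 5 UMIs; and Nr4a3, an orphan nuclear receptor, with 44 and 9 UMIs. Nfkb1 and Irs2 were thus spread over most MIP nuclei. Hacd1 had a log2 ratio of 2.60 in the band as defined, and of 0.59 when nuclei of any Rbfox3 count were included. Among the lower genes, besides Cdc20b, Deup1, Top2a and Knl1, were Dqx1 (1 UMI in MIP and 22 in Control, 15 of them in 1 nucleus), Lrmda (6 and 43), Usp11 (3 and 27), Hs6st2 (5 and 28), Eda (44 and 128) and AY036118 (126 and 341). Usp11, Hs6st2 and Eda lie on chromosome X, and the libraries differed in Xist as given above; the part of sex in these values was not tested. AY036118 was lower in MIP elsewhere too, with 665 CPM in MIP and 1929 CPM in Control over the nuclei that are no members, and 1157 and 2722 CPM in astroglia-like nuclei. With any Rbfox3 count Lrmda stood at -0.66 and Hs6st2 at -0.51.

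**Figure D5:**
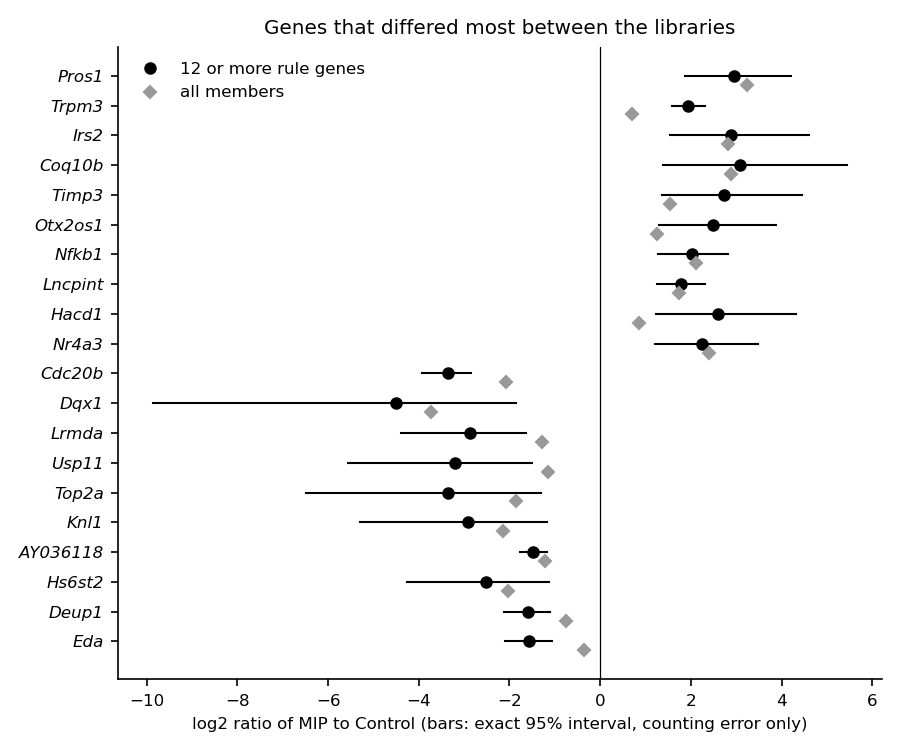
The 10 highest and the 10 lowest genes of MIP against Control in nuclei with 12 or more rule genes, ranked by the interval bound nearest to equality; black points give the log2 ratio of CPM (UMIs scaled to the library total) with its exact 95% interval for counting error, grey diamonds the ratio over all members. Pros1 stands at 2.94 and Cdc20b at -3.36, and the diamond of Trpm3 lies at 0.71.

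Lists of stress, immune and signalling genes held few genes with enough UMIs. Over all 3752 genes counted in the upper band, 7.6% were at least 2-fold higher in MIP and 8.32% at least 2-fold lower. In the clock list 4 of 11 counted were at least 2-fold higher in MIP and 0 lower, with a median of 0.67. Per1, a repressor of the clock, had 17 UMIs in MIP and 3 in Control (2.47, 0.68 to 4.88), Cry1, another repressor, had 23 and 5 UMIs, Nr1d2 had 20 and 7 UMIs, and Usp2, a clock-controlled protease, had 48 and 15 UMIs (1.64, 0.78 to 2.59). Rora, an activator, was higher by less, with 400 UMIs in MIP and 252 in Control (0.63, 0.40 to 0.87). The same genes in astroglia-like nuclei had log2 ratios of 1.26 for Per1, 1.23 for Cry1, 0.62 for Nr1d2, 0.86 for Usp2 and 0.31 for Rora. The time of day of dissection is not given in the sources used here.

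Fkbp5, a target of the glucocorticoid receptor, had 10 UMIs in MIP and 7 in Control in the upper band, too few to be counted, with a log2 ratio of 0.48 (-1.06 to 2.11). In astroglia-like nuclei it had 955 UMIs in MIP and 302 in Control, with a log2 ratio of 2.51 (2.32 to 2.70). With few UMIs in the upper band and 1 library per group, the difference between these ratios was not tested. The list counts that follow stand beside 7.6% of all 3752 genes at least 2-fold higher in MIP and 8.32% at least 2-fold lower. Of the 6 glucocorticoid genes counted, 2 were higher, Per1 and Nr3c2, and the metallothioneins Mt1 and Mt2 stood at 0.41 and 0.64. In the STAT3 list 2 of 4 were at least 2-fold higher, Jak2 at 1.07 and Cp, ceruloplasmin, at 1.08, with Stat3 at 0.68. In the NF-kB list 2 of 4 were higher, Nfkb1 and Birc2. Hes1, the effector of Notch, had 18 UMIs in MIP and 4 in Control. In the hedgehog list the coreceptors Cdon and Boc were higher, at 1.29 and 1.09, and the effector Gli2 was lower, with 5 and 19 UMIs. In the BMP and TGF-beta list 2 of 10 were at least 2-fold higher, Acvr2a with 17 UMIs in MIP and 4 in Control and Tgfbr2 with 15 and 7, and in the Wnt list 2 of 8, the effector Tcf7l2 at 1.12 and the coreceptor Lrp6 at 1.24. Of the 3 genes counted in the reactive glia list, 2 were higher, Cp and Cd109 at 1.10. In the list of immediate early and heat shock genes Nr4a3 was higher and Jund lower, of 7 counted, and Fos had 13 UMIs in MIP and 0 in Control. Of 7 genes of cholesterol and fatty acid synthesis 0 were past 2-fold in either direction, and no gene of the interferon list or the integrated stress list had 20 UMIs. Gfap had 7 UMIs in MIP and 5 in Control, and Aqp4 7 and 10.

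Over all 105 members, the lower band weighed on the comparison. Of 7246 genes counted, 448 were at least 2-fold higher in MIP (6.18%) and 920 were at least 2-fold lower (12.7%). Pros1 (68 UMIs in MIP and 13 in Control), Fos (23 and 2), Irs2 (43 and 11), Coq10b (33 and 8), Foxo3 (42 and 13), Hes1 (32 and 9), Nfkb1 (96 and 40), Nr4a3 (47 and 16), Npnt (22 and 5) and Acss3 (24 and 6) were the highest. Among the 10 lowest were Ttr (2 UMIs in MIP and 477 in Control), Il1rapl2 (5 and 245), Zfp804b (14 and 263), Serpini1 (0 and 36), Ebf1 (5 and 108), Kcnip4 (206 and 1666), Gm45341 (0 and 25), B130034C11Rik (0 and 24) and Cdc20b (48 and 367). Ttr marks choroid plexus, and Ebf1 and Kcnip4 are known from neurons. In the neuron list 8 of 15 counted genes were lower over all members, with a median of -1.03, beside -0.40 in the upper band, and 3 MIP nuclei and 9 Control nuclei of the lower band stood at or above 293 UMIs per 10000 of that list. Il1rapl2 lies on chromosome X. Of 101 counted axoneme genes outside the rule, 18 were at least 2-fold higher in MIP over all members and 0 were lower. Beside this stand 6.18% and 12.7% of all genes. The axoneme median was 0.59 over all members, beside -0.04 over all genes. In the lower band it was 0.60, beside -0.007, unlike the upper band. The part of the mix of nuclei in these values was not tested. Without nuclei that had at least 3 choroid plexus markers Ttr was left with 2 UMIs in MIP and 0 in Control.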

How the data were processed

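Single-nucleus RNA of the subventricular zone was counted in 1 MIP and 1 Control library, grouped by the labels. The authors deposited raw UMI counts per gene and barcode, made with Cell Ranger 5.0.1 on mm10, per the submitters' processing notes; whether introns were counted and reads assigned by strand is not given in the sources used here. Whole barcodes as deposited were read, 12366 in MIP and 16964 in Control, and the filters of the rule were applied (500 genes, 5% mitochondrial UMIs), which left out 204 MIP and 0 Control barcodes under 500 genes and 48 MIP and 114 Control barcodes over the mitochondrial limit.

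UMIs were summed over the chosen nuclei of each library. A log2 ratio compares CPM (UMIs scaled to the library total), with an interval from the exact test of 2 Poisson counts. Shares have exact Clopper-Pearson intervals, and both kinds are at 95%. The ratio interval was tried on simulated Poisson counts, the model it assumes, which cannot show how it fares with spread between nuclei. The share intervals were not simulated. A library at 0 is set to 3 UMIs, which gives a bound. A gene was counted with at least 20 UMIs over both libraries and called at 2-fold or more; mitochondrial, ribosomal protein, haemoglobin genes, the Y-linked Eif2s3y, Kdm5d, Uty and Ddx3y, and on chromosome X Tsix and Xist were left out of the ranks, while other genes of chromosome X were kept. PCR and capture add error that these intervals do not cover. Scrublet in Scanpy 1.11.5 set a threshold that marked 0 barcodes, so the highest scores at a rate of 0.8% per 1000 barcodes (9.89% in MIP and 13.6% in Control) were marked only for description and an alternative.

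Genes named are the rule genes, the 15 with the highest lower bound against the nuclei that are no members, the 10 highest and 10 lowest of MIP against Control by the bound nearest to equality, and, in each list, those with most UMIs or the widest bound, besides a few regulators; 1 gene that this rule ranks among the lowest over all members is not reported here. Genes described by Deup1 state were named after their values were seen. The members and the 38 gene lists (833 of 850 genes are in the files) were chosen with earlier results of these data known. Positions are from GENCODE M21 by gene identifier (89 of 89 matched), sequences from RefSeq GRCm38.p6. Other limits, thinning to 2000 UMIs, doublet and choroid plexus exclusions, equal weight per nucleus, and TMM scaling (edgeR 4.0.16 in R 4.3.3) or median-of-ratios scaling were tried. Python 3.11.15, NumPy 2.4.6, SciPy 1.17.1, pandas 2.3.3 and matplotlib 3.10.9 were used.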

Additional observations from a re-analysis of the deposited data

Results flagged for a closer look

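Barcodes outside the rule carried the same genes. In the MIP library 4 nuclei, and in the Control library 13 nuclei, had 12 or more rule genes but more than 1 Rbfox3 UMI. Their median depth was 23917 UMIs in MIP and 22903 in Control, they showed a median of 79.5 and 86 axoneme genes, and their neuron list stood at 399 and 252 UMIs per 10000. Deup1 had at least 3 UMIs in 0 of the 4 MIP nuclei and 2 of the 13 Control nuclei. A further 7 Control barcodes, and 0 MIP barcodes, had 12 or more rule genes and more than 5% mitochondrial UMIs (5.04 to 7.31%). All 7 showed all 17 rule genes, with a median of 83 axoneme genes (68 to 109) and 13862 UMIs, and 0 had 3 or more Deup1 UMIs.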

How the results depend on the processing

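Shares of members kept a log2 ratio within counting error of equality under the alternatives tried, except with nuclei of any Rbfox3 count (-0.90, from 85 MIP and 221 Control nuclei). Counts of genes past 2-fold, which were 448 higher and 920 lower over all members, were 293 and 413 with 8 rule genes, 285 and 312 with 12, 275 and 412 with 12 and no mitochondrial limit, 121 and 129 after thinning to 2000 UMIs, 773 and 1772 with 10 UMIs per gene, 208 and 297 with 50, 1419 and 2291 with no minimum, and 1297 and 1760 at 1.5-fold; the number of nuclei or of genes counted changes with each. List genes of cilia and ependyma called against the nuclei that are no members were 203 of 261, and 103 of 118 after thinning. Some values turned direction. These were the reactive glia median with 8 rule genes (-0.077), and Zfp804b with 12 rule genes (0.38) and without the mitochondrial limit (1.07). With 12 rule genes and any Rbfox3 count, Il1rapl2 (0.82), Serpini1 (1.47) and Kcnip4 (0.00043) turned. Ttr turned without nuclei that had at least 3 choroid plexus markers (0.69). The cause was not tested, except that fewer or other nuclei enter. TMM and median-of-ratios scaling moved all log2 ratios of the upper band by 0.09 and 0.03. Of the values for single genes, lists and gene counts of the upper band, 667 stayed within their limit, 136 moved past it and 7 turned. The limit was the interval of the main value for a single gene, and a fixed one for a list median or a count. Only values at least 2-fold from equality could be called turned, so sign changes of smaller values are not among the 7. No paired analysis was possible because each group is 1 library. Depth limits most response genes, which had under 20 UMIs.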
